A study of Mus musculus with 7 samples.

Results

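The genes described here are those whose RNA was highest in the mouse adrenal gland at 2 weeks of age. They were chosen by their own values: in both 2-week libraries the normalized count had to be at least 50 and at least 2 times the highest value in any of the 5 other libraries. The rule found 47 of 35976 gene symbols. With the P1 libraries as the peak it would have found 157 genes, and with the 12-week libraries 228. The height at 2 weeks is therefore a description, with no test, and tests were run on the order of P1 and 12 weeks, which the rule did not set. Because the rule needs high values in both 2-week libraries, it also passed over genes with a wide sex difference at that age, so the comparison of the sexes is not free of it.

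All animals were C57BL/6J mice, an inbred laboratory strain, and the labels name no treatment or mutant allele. Whole adrenal glands were pooled into 7 libraries of total RNA: E18.5 of undetermined sex (40 glands), males and females at postnatal day 1 (P1; 16 and 22 glands), at 2 weeks (6 and 6 glands) and at 12 weeks (4 and 4 glands). Each group was thus 1 pool, the number of animals behind a pool is not given, and no group had a replicate. Between 15184210 and 23551289 reads per library fell in genes. Values are normalized counts, that is, reads divided by 1 size factor per library. Where an age has a pair of values, the male library comes first.

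The adrenal gland joins a cortex that makes steroids with a medulla of chromaffin cells that make catecholamines. In young mice the innermost cortex forms the X-zone, a transient layer that regresses at puberty in males and later in females. The gland lies in fat that in young rodents contains brown adipocytes, cells that burn fatty acids for heat through the uncoupling protein UCP1. The citric acid cycle oxidizes acetyl-CoA in the mitochondria of all of these cells.

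The labelled tissue was checked against its markers: 6 cortex genes were at or above 4247 normalized counts and 5 medulla genes at or above 551 in all 7 libraries. Summed over 4 Y-linked genes, the library labelled P1 female held 1273 normalized counts, against 6135 in the P1 male library and 4.41 and 2.26 in the older female libraries. Between the 2-week libraries, 15 of 15 skeletal muscle genes, 13 of 13 liver genes, 10 of 10 neutrophil genes and 9 of 9 erythroid genes differed by at least 2-fold. Their sums were 397 in the male and 14343 in the female library for muscle, 14078 and 36861 for liver, 48.9 and 2342 for neutrophils, and 8595 and 25565 for erythroid cells. None of the 47 genes is on the muscle, liver, neutrophil or erythroid list, but these lists do not hold every gene of those tissues. On the brown fat list are 5 members, and on the Schwann cell list 1, S100b. In whole glands, more cells of a type and more RNA per cell cannot be told apart.

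Most members stood a little above the limit of the rule. The smaller 2-week value was 2.01 to 13.4 times the largest other value, with a median of 2.37, and 29 of the 47 were under 2.5 times. At 3 times, 14 genes remained, and at 4 times 9. Relative to the mean of the 2-week libraries, the median member was at 17.5% at E18.5, 26.3% at P1 and 23.1% at 12 weeks. The next highest library was a 12-week library for 25 members, a P1 library for 21 and E18.5 for 1. Just inside the limit were Slc28a2 at 2.01, Plin5 at 2.04 and Nrip3 at 2.05 times, and just outside it Letmd1 at 1.99, Oprd1 at 1.96 and Rasl12 at 1.94 times. Of the members, 44 were protein-coding and 2 were long non-coding RNAs in RefSeq, and LOC102632957 was not matched. The 46 matched genes lay on 17 chromosomes. The closest pair was Ppargc1b and A530050N04Rik on chromosome 18, 69469 bases apart.

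**Figure D1:**
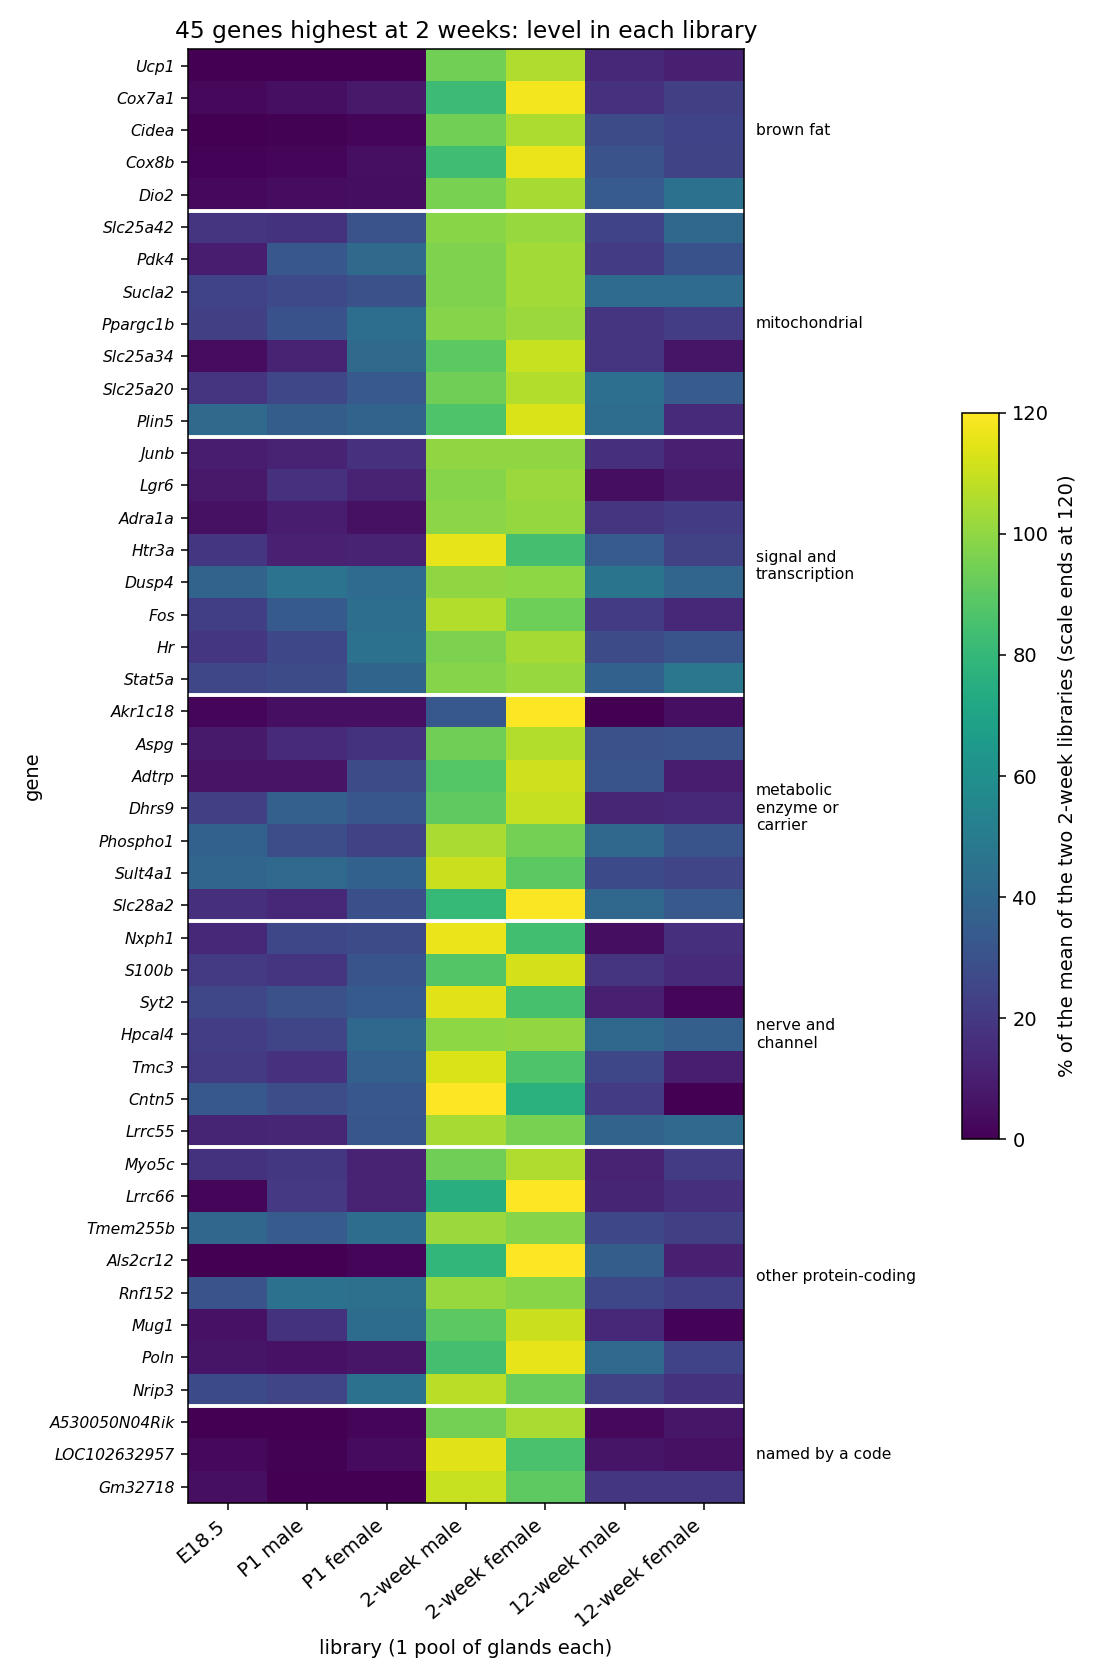
Level of 45 of the genes (rows, grouped by role) in each of the 7 libraries (columns), in percent of the mean of the 2-week libraries, on a colour scale that ends at 120%. The 2-week columns are brightest by the choice of the genes, and the brown fat genes at the top are dark at E18.5 and P1 and less dark at 12 weeks.

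Genes of brown fat held some of the highest 2-week levels. Of the 17 genes on the brown fat list 5 were members: Ucp1, the uncoupling protein of brown fat; Cidea, a lipid droplet protein of brown adipocytes; Dio2, which converts thyroxine to the active thyroid hormone; and Cox7a1 and Cox8b, cytochrome c oxidase subunits also used in heart and skeletal muscle. Ucp1 was at 7.56 at E18.5, 3.27 and 24.3 at P1, 19373 and 21706 at 2 weeks, and 2705 and 2197 at 12 weeks. Cidea was at 18.48, then 33.5 and 62.9, then 3753 and 4187, and at 12 weeks 1107 and 966. By the rule, both genes were highest at 2 weeks. Their 12-week values lay above all of their values at E18.5 and P1. Dio2 was at 19.3 at E18.5, 28.6 and 33.1 at P1, 689 and 749.9 at 2 weeks, and 247 and 322 at 12 weeks. Cox8b was at 24.4, then 42.5 and 96.0, then 1587 and 2224, and at 12 weeks 582 and 466. For Cox7a1 the values were 36.1 at E18.5, 67.9 and 115 at P1, 1181 and 1695 at 2 weeks, and 243 and 327 at 12 weeks. In all 5 genes, both 12-week values lay above every E18.5 and P1 value. Per kilobase of exon, the mean 2-week level was 12555 for Ucp1, 5293 for Cox8b, 3561 for Cidea, 2688 for Cox7a1 and 124 for Dio2. On that scale Ucp1 came close to the most abundant member, Akr1c18, at 13379. The mean for Akr1c18 joins unequal 2-week libraries, at 5346 and 26949 normalized counts before division by exon length.

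These 5 genes give the clearest result on what the rule did not use, the order of P1 and 12 weeks. All 5 rose from P1 to 12 weeks, by 7.87 ± 0.618 (SE) for Ucp1 (adjusted p = 0.00031), 4.46 ± 0.265 for Cidea (adjusted p = 0.000163), 3.16 ± 0.210 for Dio2 (adjusted p = 0.0002), 3.005 ± 0.333 for Cox8b (adjusted p = 0.00102) and 1.66 ± 0.186 for Cox7a1 (adjusted p = 0.00104). These are log2 differences of normalized count + 1 from limma, fitted with age and sex as terms to the 6 postnatal libraries and adjusted over 16720 genes. Of all genes tested, 17.6% were called higher at 12 weeks and 23.5% lower. None of the 5 calls was lost in the 16 alternatives, which include each postnatal library and both 2-week libraries left out. Over the same interval, RNA of liver, muscle, kidney and pancreas fell. The liver sum went from 418683 and 291216 at P1 to 535 and 454 at 12 weeks, with 13 of 13 genes lower in the limma test, and the muscle sum from 89611 and 167617 to 102 and 96.2, with 15 of 15 lower. All 9 kidney genes and 5 of 7 tested exocrine pancreas genes were lower as well, while the 15 adipocyte genes were higher. The part of these tissues in the members' differences was not tested. Cox7a1 and Cox8b were higher in the 2-week female library, the one with more muscle RNA, with male to female ratios of 0.697 and 0.714. Whether muscle RNA takes part in that difference was not tested.

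Other brown fat genes were not all highest at 2 weeks. Of the 9 list genes that were tested and are no members, 3 were higher in both 2-week libraries than in the other 5 (8.38% of all 16720 genes tested were): Otop1, Ppargc1a and Gk. Otop1, a proton channel of brown fat, missed the rule at 1.72 times, with 323.8 and 394 at 2 weeks and 189 and 131 at 12 weeks. The other 6, not highest at 2 weeks, were Elovl3, Prdm16, Slc27a2, Fabp3, Kcnk3 and Ebf2, and Zic1 had at most 3 reads in each 2-week library. From P1 to 12 weeks 3 of the 9 rose (Elovl3, Otop1 and Kcnk3) and 4 fell (Ppargc1a, Slc27a2, Fabp3 and Ebf2) in the limma test. Of all genes tested, 17.6% rose and 23.5% fell.

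General adipocyte genes also had lower summed levels at E18.5 and P1. None of the 15 genes on the adipocyte list was a member, and 6 were highest in both 2-week libraries (8.38% of all genes tested were). All 15 rose from P1 to 12 weeks in the limma test, against 17.6% of all genes tested. Adipoq, the adipocyte hormone adiponectin, was at 2.52 at E18.5, 11.5 and 142 at P1, 1929 and 2408 at 2 weeks, and 5237 and 3026 at 12 weeks. Retn, the adipocyte hormone resistin, was at 151 and 123.5 at 2 weeks and 1446 and 1562 at 12 weeks. Summed over the list, adipocyte RNA was 8858 at E18.5, 11787 and 13206 at P1, 51939 and 56531 at 2 weeks, and 65647 and 51061 at 12 weeks. The summed adipocyte level thus overlapped between 2 and 12 weeks. The 5 brown fat members stood at 11.9% to 39.6% of their 2-week mean at 12 weeks, where the rule capped them, so the 2 courses are not a comparison. The part of adipocyte RNA in the levels of the members was not tested.

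**Figure D2:**
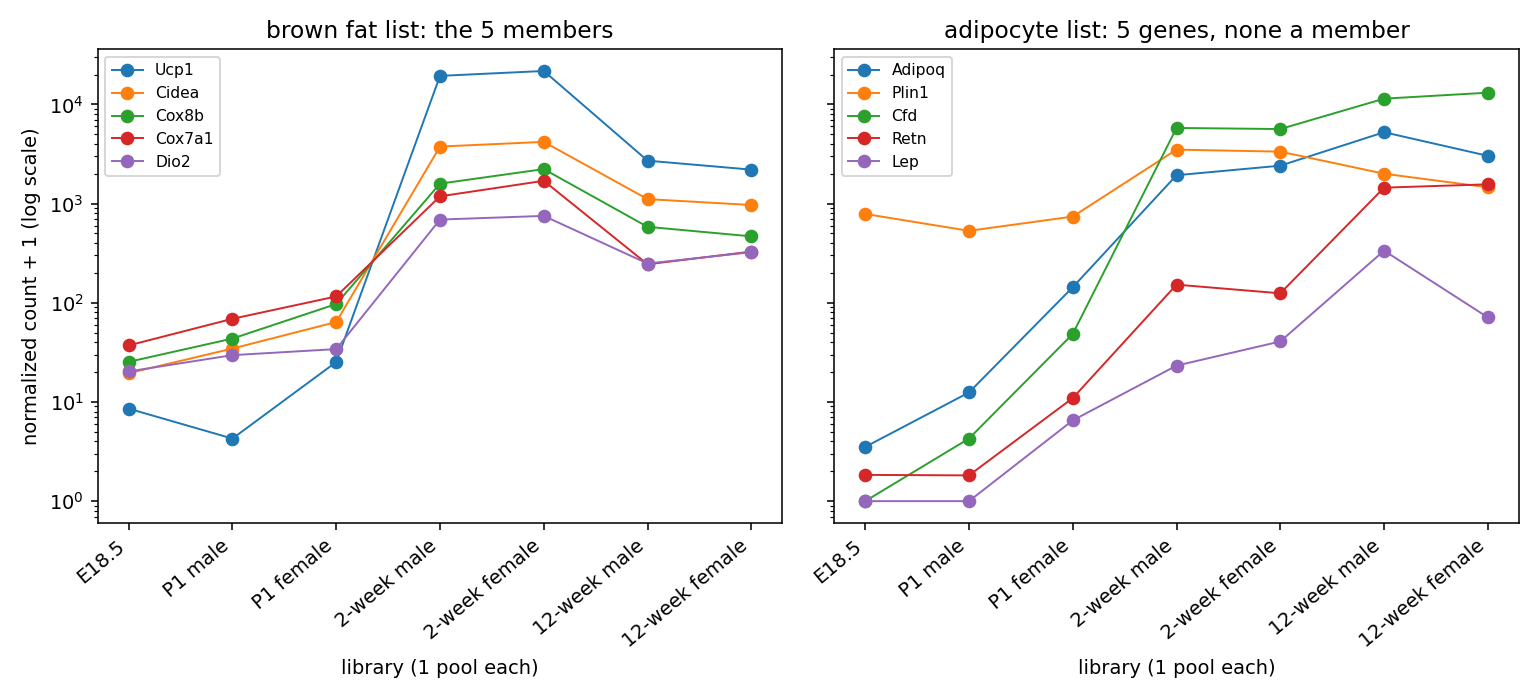
Normalized count + 1 on a log axis in each of the 7 libraries (lines join the libraries of 1 gene): left, the 5 brown fat members; right, 5 genes of the adipocyte list. The members are highest at 2 weeks (Ucp1 19373 and 21706) and lower at 12 weeks, as the rule requires; Adipoq, Cfd, Retn and Lep are highest at 12 weeks and Plin1 at 2 weeks.

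Promoter sequences were read for members from RefSeq (GRCm38.p6, the same build as mm10), which held 35 of the 47. The 250 bases before the first listed start were searched on both strands for TGACGTCA (the cyclic AMP response element), TGANTCA (AP-1), TNAAGGTCA (steroidogenic factor 1 and the ERR receptors), TTCNNNGAA (STAT5), TATAAA and CCAAT. Matches of different motifs may overlap. The cyclic AMP element was in 1 of 35 members (2.86%) and 1.62% of all 27025 promoters, AP-1 in 3 (8.57% against 6.87%), the steroidogenic factor 1 motif in 1 (2.86% against 1.14%) and STAT5 in 2 (5.71% against 7.18%). TATAAA was in 4 (11.4% against 13%) and CCAAT in 17 (48.6% against 34.5%). The median GC content was 57.6% in members and 52.0% in all promoters. These are matches of letters and say nothing of binding. The promoters of 3 brown fat members are shown because these genes moved together and differ in which motif they hold. They are Ucp1 (chr8:83290098-83290347, plus strand, no motif found), Dio2 (chr12:90739039-90739288, minus strand) and Cox7a1 (chr7:30183921-30184170, plus strand), 5′ to 3′ along the gene with the matches in capitals. In Dio2 these are the cyclic AMP element, 95 to 88 bases before the start, and TATAAA, 30 to 25 bases before it, and in Cox7a1 CCAAT on the other strand, at 137 to 133 and 74 to 70 bases.
Ucp1: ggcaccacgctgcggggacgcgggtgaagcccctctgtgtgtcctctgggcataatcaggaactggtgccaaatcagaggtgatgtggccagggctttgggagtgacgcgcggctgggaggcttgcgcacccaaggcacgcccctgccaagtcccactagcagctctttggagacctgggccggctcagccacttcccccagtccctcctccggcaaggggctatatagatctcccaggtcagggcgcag
Dio2: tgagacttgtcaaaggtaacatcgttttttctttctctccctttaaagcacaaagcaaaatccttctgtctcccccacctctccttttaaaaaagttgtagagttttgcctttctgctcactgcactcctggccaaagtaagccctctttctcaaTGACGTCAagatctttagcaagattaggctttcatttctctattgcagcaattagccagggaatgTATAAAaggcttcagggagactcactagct
Cox7a1: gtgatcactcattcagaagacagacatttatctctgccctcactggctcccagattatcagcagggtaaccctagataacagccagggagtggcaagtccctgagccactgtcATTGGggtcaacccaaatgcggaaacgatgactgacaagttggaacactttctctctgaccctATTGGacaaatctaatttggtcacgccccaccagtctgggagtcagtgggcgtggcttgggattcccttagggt

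Mitochondrial members included an enzyme of the citric acid cycle and carriers of fatty acid fuel. Sucla2, a subunit of the ATP-forming succinyl-CoA ligase, was at 2147 at E18.5, 2341 and 2637 at P1, 8531 and 9136 at 2 weeks, and 3705 and 3718 at 12 weeks. It was abundant in every library and stood apart at 2 weeks from a lower level at the other ages. From P1 to 12 weeks Sucla2 rose by 0.58 ± 0.141 (limma adjusted p = 0.018; 0.00209 to 0.0972 over the alternatives). The call for Sucla2 was lost in 7 of 16 alternatives: limma without a trend, both 2-week libraries left out, and any single postnatal library other than 12-week female left out.

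Most other enzymes of the cycle on the list were highest at 2 weeks as well, by less. Of 16 genes on the citric acid cycle list, 14 were higher in both 2-week libraries than in all others. Among all genes tested, 8.38% were. The list was drawn up after the members were known, and Sucla2 counts among the 14 by the rule. The exceptions were Sdha and Sdhb, subunits of succinate dehydrogenase that were highest in the 12-week female library. Citrate synthase (Cs) reached 1.86 times and Idh3a, a subunit of isocitrate dehydrogenase, 1.92 times the largest other value, just short of the rule. Summed over the list, the level was 42716 at E18.5, 44326 and 46091 at P1, 81485 and 90446 at 2 weeks, and 47454 and 59463 at 12 weeks. From P1 to 12 weeks 1 of the 16, Sucla2, passed the limma test. Of all genes tested, 17.6% were called higher and 23.5% lower.

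**Figure D3:**
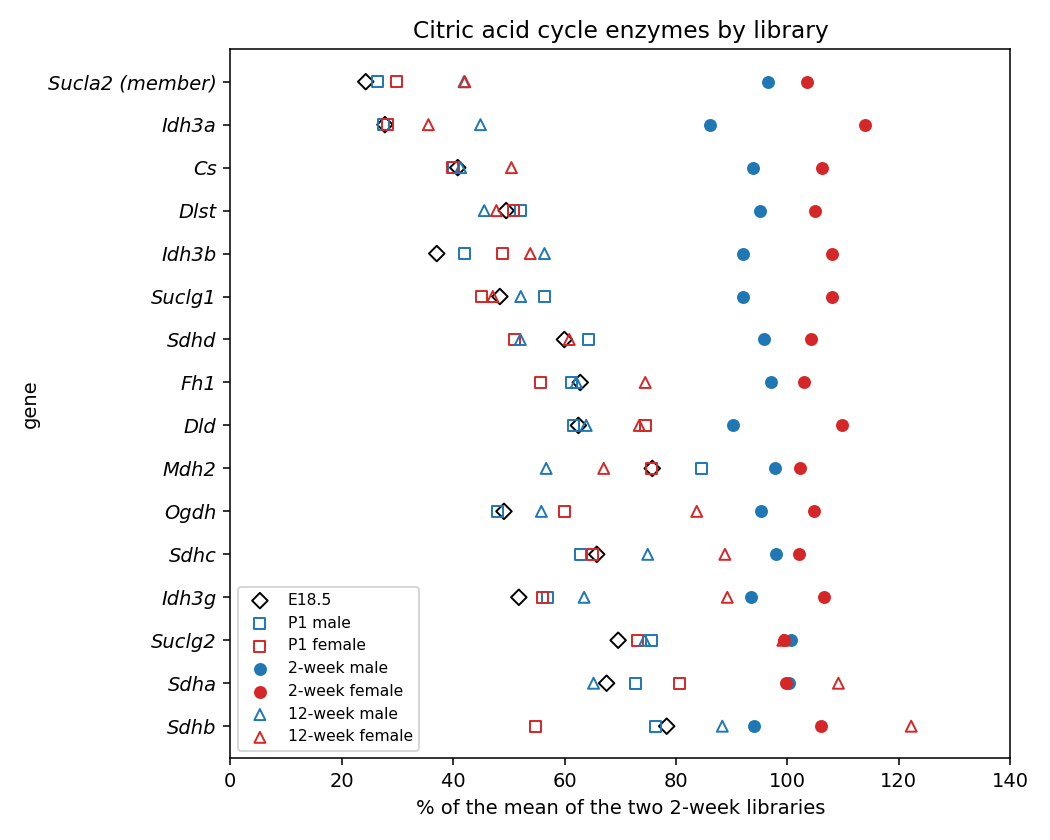
Level of 16 citric acid cycle genes (rows) in each library, in percent of the mean of the 2-week libraries; filled circles are the 2-week libraries, squares P1, triangles 12 weeks, diamonds E18.5, with males in blue and females in red. Sucla2, a member, has the widest gap between 2 weeks and the rest, and in Sdha and Sdhb the 12-week female library is the highest.

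Another 4 members move or burn fatty acid fuel or hold back glucose. Slc25a20, the carrier that brings acylcarnitines into mitochondria, was at 478 at E18.5, 649 and 853 at P1, 2398 and 2707 at 2 weeks, and 1113 and 885 at 12 weeks. The carnitine shuttle list was drawn up after the members were known. Of its 5 tested genes, Slc25a20 was highest in both 2-week libraries by the rule. Cpt2 and Crat were highest there too (8.38% of all genes tested were). Cpt1a and Slc22a5 were not. Pdk4, the kinase that switches off pyruvate dehydrogenase, was at 305 at E18.5, 1096 and 1381 at P1, 3239 and 3450.4 at 2 weeks, and 693 and 1007 at 12 weeks. The other 3 pyruvate dehydrogenase kinases, Pdk1, Pdk2 and Pdk3, were not highest at 2 weeks. Plin5, which coats lipid droplets that touch mitochondria, was at 149 at E18.5, 128 and 138 at P1, 313 and 407 at 2 weeks, and 154 and 50.9 at 12 weeks. Slc25a42, a mitochondrial carrier of coenzyme A, was at 101 at E18.5, 94.1 and 167 at P1, 534 and 548 at 2 weeks, and 130.0 and 218 at 12 weeks. The fatty acid oxidation and ketogenesis list as a whole did not peak: 2 of its 14 tested genes were highest in both 2-week libraries, Pdk4 by the rule. Among all genes tested, 8.38% were.

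Ppargc1b, a coactivator of nuclear receptors that drive mitochondrial genes, was at 203 at E18.5, 271 and 385 at P1, 874 and 909 at 2 weeks, and 162 and 192 at 12 weeks. It fell by 0.87 on the log2 scale from P1 to 12 weeks (SE 0.191, limma adjusted p = 0.0127), a call lost without the P1 female library (adjusted p = 0.101). On a list of 9 coactivators and their receptor partners drawn up later, 5 were highest in both 2-week libraries (8.38% of all genes tested were). Ppargc1b counts among the 5 by the rule. Ppara, a receptor for fatty acids, missed the rule at 1.93 times, with 1475 and 1719 at 2 weeks, 638 and 766 at P1, and 456 and 455 at 12 weeks. Slc25a34, a mitochondrial carrier of the same family as Slc25a20, was at 14.3 at E18.5, 43.4 and 148 at P1, 321 and 393 at 2 weeks, and 64.3 and 24.9 at 12 weeks.

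Signalling genes and transcription factors formed another group of 9 members. Junb, a subunit of the transcription factor AP-1, was at 131 at E18.5, 155 and 232 at P1, 1344 and 1348 at 2 weeks, and 219.5 and 140.3 at 12 weeks. Its partner Fos was at 103, then 158 and 199.8, then 491 and 432, and at 12 weeks 99.3 and 63.4. The smaller 2-week value of Junb was 5.80 times the largest other value, and that of Fos 2.16 times. Other immediate early genes, which respond within minutes to a stimulus, did not move as a block. Of 12 on the list, 5 were highest in both 2-week libraries: Fos and Junb, by the rule, and Ier2, Arc and Egr1. The share over all genes tested was 8.38%. Egr1 barely qualified, with 847 in the 2-week male and 845.5 in the P1 female library. Jun was at 1789.8 and 1614 at 2 weeks and 5654 and 2875 at 12 weeks, and Nr4a1 at 9913 and 6960 against 1174 and 8493. From P1 to 12 weeks Fos fell by 1.15 (SE 0.279, limma adjusted p = 0.0177; lost without the P1 female or the 12-week female library), and Junb differed by -0.11 ± 0.294 (adjusted p = 0.788). The promoters of Fos (chr12:85473640-85473889, plus strand) and Junb (chr8:84978749-84978998, minus strand) are shown as the AP-1 pair. Capitals mark TATAAA at 33 to 28 bases before the start in Fos and CCAAT at 36 to 32 bases in Junb, and neither held the AP-1 or full cyclic AMP letters.
Fos: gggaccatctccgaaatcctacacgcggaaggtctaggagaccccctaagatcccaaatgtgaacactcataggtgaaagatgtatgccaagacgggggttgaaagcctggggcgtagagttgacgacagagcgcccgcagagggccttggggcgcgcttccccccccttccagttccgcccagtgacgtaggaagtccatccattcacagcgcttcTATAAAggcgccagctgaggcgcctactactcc
Junb: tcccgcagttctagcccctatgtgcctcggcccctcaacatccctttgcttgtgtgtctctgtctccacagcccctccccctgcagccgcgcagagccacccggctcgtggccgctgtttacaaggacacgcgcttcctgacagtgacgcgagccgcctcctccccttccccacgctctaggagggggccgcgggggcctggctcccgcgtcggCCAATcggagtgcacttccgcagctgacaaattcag

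The receptor genes Lgr6 and Adra1a were among the 12 members with the largest gap. Lgr6, a receptor for R-spondins, which strengthen Wnt signals, was at 34.4 at E18.5, 72.8 and 48.6 at P1, 416 and 433 at 2 weeks, and 18.2 and 36.2 at 12 weeks. Its relatives Lgr4 and Lgr5 were not highest at 2 weeks: Lgr5 was at 1023 and 1016 at 2 weeks and 1219 and 1093 at 12 weeks. Adra1a, an adrenergic receptor for noradrenaline, was at 27.7 at E18.5, 49.1 and 28.7 at P1, 524 and 533 at 2 weeks, and 95.1 and 113 at 12 weeks. It rose by 1.44 ± 0.306 from P1 to 12 weeks (limma adjusted p = 0.0112; 0.0855 without the P1 female library). Of the other 8 adrenergic receptor genes, Adrb1 alone was highest in both 2-week libraries, at 23.1 and 30.9 (8.38% of all genes tested were highest there). Htr3a, a subunit of the serotonin-gated ion channel, was at 118 at E18.5, 69.6 and 76.2 at P1, 729 and 533 at 2 weeks, and 219.5 and 148 at 12 weeks, and rose by 1.30 ± 0.246 from P1 to 12 weeks (limma adjusted p = 0.00731; 0.0635 without the P1 male library). Htr3b, the partner subunit, was also highest at 2 weeks, at 174 and 98.8, but fell by 2.67 on the log2 scale from P1 to 12 weeks (limma adjusted p = 0.0331).

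Another 3 signalling members had smaller gaps. Stat5a, a transcription factor activated by growth hormone and prolactin, was at 323 at E18.5, 344 and 490.1 at P1, 1241 and 1281 at 2 weeks, and 473 and 602 at 12 weeks. Its near copy Stat5b was also highest at 2 weeks, at 2323 and 2291, while the STAT5 target genes Cish and Socs2 were lower at 2 weeks than at P1, with 79.2 and 82.0 and with 253 and 312. Hr, a corepressor of the thyroid hormone receptor, was at 68.1 at E18.5, 92.5 and 162 at P1, 345 and 371 at 2 weeks, and 101 and 111 at 12 weeks. Dusp4, a phosphatase of MAP kinases, was at 150.4 at E18.5, 179 and 164 at P1, 393 and 391 at 2 weeks, and 180.4 and 153 at 12 weeks. None of these 3 passed the test from P1 to 12 weeks, in which 17.6% of all genes tested were called higher and 23.5% lower.

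Akr1c18 was the member in which the male and female libraries differed most at 2 and 12 weeks, with 1 pool per sex. It encodes an enzyme that inactivates progesterone and marks the X-zone. Akr1c18 was at 283 at E18.5, 811 and 827 at P1, 5346 and 26949 at 2 weeks, and 2.80 and 774 at 12 weeks. The P1 libraries were level, but the one labelled female also held Y-linked RNA. That pair therefore does not show that the sexes were equal at P1. The female library was higher at 2 and at 12 weeks. The male to female ratio at 2 weeks was 0.198 (95% interval 0.193 to 0.204, counting error only). At 12 weeks it was 0.0036 (0.0004 to 0.0131), from 2 reads in the male and 684 in the female library. Pik3c2g, another X-zone gene, missed the rule because its 2-week male value was 60.5 and the female value 500.2. At 12 weeks Pik3c2g was at 0 and 28.3. Thrb, the third gene of the X-zone list and a thyroid hormone receptor, was not highest at 2 weeks: it was at 821 and 968 at P1, 2171 and 2699 at 2 weeks, and 1444 and 3394 at 12 weeks. Of the 3 list genes, Akr1c18 was highest in both 2-week libraries by the rule, and Pik3c2g was as well (8.38% of all genes tested were). From P1 to 12 weeks 1 list gene, Thrb, was called, higher by 1.31 ± 0.255 (limma adjusted p = 0.00808). Of all genes tested, 17.6% were called higher and 23.5% lower. Akr1c18 lies in a cluster of close relatives on chromosome 13, so reads could be split among them. Its promoter (chr13:4150647-4150896, minus strand) is shown as that of the member with the widest difference between these libraries. It held none of the 6 motifs.
Akr1c18: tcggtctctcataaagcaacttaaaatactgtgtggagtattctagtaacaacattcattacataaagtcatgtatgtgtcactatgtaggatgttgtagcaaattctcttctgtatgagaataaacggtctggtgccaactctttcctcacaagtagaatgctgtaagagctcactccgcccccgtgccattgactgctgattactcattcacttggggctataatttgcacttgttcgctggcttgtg

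The other 6 members that encode metabolic enzymes or carriers reached 70.3 to 558 at 2 weeks. Adtrp, a hydrolase of fatty acid esters, was at 32.8 at E18.5, 31.1 and 137 at P1, 442 and 558 at 2 weeks, and 155 and 46.4 at 12 weeks. Dhrs9, a dehydrogenase of retinoids and steroids, was at 37.0 at E18.5, 59.7 and 51.9 at P1, 147 and 177 at 2 weeks, and 21.0 and 22.6 at 12 weeks, and fell by 1.31 from P1 to 12 weeks (SE 0.303, limma adjusted p = 0.015; not called when either P1 library was left out). Aspg, an asparaginase, was at 158 and 179 at 2 weeks and 50.3 and 52.0 at 12 weeks; its rise of 0.92 ± 0.288 from P1 (limma adjusted p = 0.0427) was lost in 12 of 16 alternatives, each of the 6 single libraries left out among them. Phospho1, a phosphatase of phosphocholine, was at 310.5 and 281 at 2 weeks and between 70.6 and 119 elsewhere. Sult4a1, a sulfotransferase of neural tissue, was at 361 and 293 at 2 weeks and between 81.5 and 133 elsewhere. Slc28a2, a nucleoside transporter, was at 70.3 and 104 at 2 weeks and between 11.5 and 35.0 elsewhere.

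A further 7 members encode proteins of nerve cells, glia or ion channels. Lrrc55, an auxiliary subunit of potassium channels, was the most abundant of them at 141 at E18.5, 149 and 364 at P1, 1185 and 1088 at 2 weeks, and 432 and 466 at 12 weeks. Nxph1, a secreted ligand of neurexins, was at 37.0 at E18.5, 70.4 and 74.0 at P1, 315 and 227 at 2 weeks, and 12.6 and 45.3 at 12 weeks. Syt2, a calcium sensor of synaptic vesicles, was at 31.1, then 36.0 and 40.8, then 139 and 103, and at 12 weeks 12.6 and 2.26. Syt2 fell by 2.56 from P1 to 12 weeks (SE 0.573, limma adjusted p = 0.0135; 0.142 without the P1 female library), with 9 and 2 reads at 12 weeks. Cntn5, an adhesion molecule of neurons, was at 182 and 114 at 2 weeks, and at 12 weeks at 30.8 in the male library and 0 in the female library, where 3 reads would be 3.39 normalized counts. S100b, a calcium-binding protein of glia, was at 56.3 at E18.5, 49.1 and 86.1 at P1, 241 and 309 at 2 weeks, and 50.3 and 40.7 at 12 weeks. S100b was highest in both 2-week libraries by the rule. No other of the 17 genes on the Schwann cell list was (8.38% of all genes tested were). Hpcal4, a calcium sensor of neurons, was at 324 and 326 at 2 weeks and at most 130.2 elsewhere, and Tmc3, of the transmembrane channel-like family, at 259 and 199 and at most 83.9 elsewhere. Among 15 chromaffin cell genes, 3 were highest in both 2-week libraries (8.38% of all genes tested were) and none was a member.

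Of the 3 members named by a code in these data, 2 had the largest ratios of all. RefSeq lists 1 of them, A530050N04Rik, under the symbol Lncbate10, and it was not on the brown fat list. A530050N04Rik, a long non-coding RNA, was at 0 at E18.5, 0 and 4.42 at P1, 213 and 235 at 2 weeks, and 5.59 and 15.8 at 12 weeks, a ratio of 13.4. In males its 2-week value was at least 86.6-fold higher than at P1, taking 3 reads as the floor of the P1 library. LOC102632957 was at 3.36 at E18.5, 0.818 and 4.42 at P1, 141 and 106 at 2 weeks, and 8.39 and 6.79 at 12 weeks, a ratio of 12.6. Gm32718, also a long non-coding RNA, was at 3.36 at E18.5, 0 in both P1 libraries, 72.1 and 59.1 at 2 weeks, and 12.6 and 12.4 at 12 weeks. Against the floor of 3 reads, its 12-week values were at least 5.13-fold higher than at P1 in males and at least 3.76-fold higher in females. A530050N04Rik (2.18 ± 0.619, limma adjusted p = 0.0309) and Gm32718 (3.76 ± 0.526, adjusted p = 0.00239) passed the test from P1 to 12 weeks, with fitted sizes that depend on the pseudocount of 1. The call for A530050N04Rik was lost in 6 of 15 alternatives (adjusted p up to 0.181, without the P1 male library): a pseudocount of 0.1, a mean of at least 50 or above 0, edgeR, and the P1 male or both 2-week libraries left out.

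The last 8 members have no shared role. Myo5c, a myosin motor, was at 38.6 at E18.5, 42.5 and 25.4 at P1, 208 and 234 at 2 weeks, and 25.2 and 46.4 at 12 weeks. Lrrc66, a protein with leucine-rich repeats, was at 1.68, then 20.5 and 12.1, then 77.4 and 129, and at 12 weeks 12.6 and 17.0. Rnf152, a ubiquitin ligase of lysosomes, was at 564 and 547 at 2 weeks and 145 and 124 at 12 weeks, and fell by 0.88 from P1 to 12 weeks (SE 0.189, limma adjusted p = 0.0116; not called when either P1 library was left out). Poln, a DNA polymerase, was at 9.24 at E18.5, 8.18 and 9.93 at P1, 116 and 158 at 2 weeks, and 55.9 and 32.8 at 12 weeks, and rose from P1 by 2.13 ± 0.414 (limma adjusted p = 0.00803; not called when either P1 library was left out). Als2cr12 had 0 and 1 read at P1, 59.6 and 90.0 normalized counts at 2 weeks, and 26.6 and 7.92 at 12 weeks. In males its 12-week value was at least 10.8-fold higher than at P1, against the floor of 3 reads, and it was called higher at 12 weeks (limma adjusted p = 0.0119; 0.108 without the P1 male library, and lost without the 12-week male library too). Mug1, a protease inhibitor with a near copy in Mug2 that could take some of its reads, was at 74.7 and 91.8 at 2 weeks. Tmem255b, at 60.5 and 58.2 at 2 weeks, and Nrip3, at 157 and 136, were at most 25.4 and 66.2 elsewhere. Another gene with a mean of at least 10 overlaps 5 of the members described, so reads from these pairs may be mixed if strand was not used: Myo5c with Gnb5, Phospho1 with Abi3, Poln with Haus3, Tmc3 with Gm16638 and Tmem255b with Gas6.

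Across all members, the order of P1 and 12 weeks was mixed. The limma test called 13 of 47 higher at 12 weeks than at P1 (27.7%, against 17.6% of all genes tested) and 6 lower (12.8%, against 23.5%), and 28 were not called. The 13 were the 5 brown fat genes, Gm32718, Als2cr12, A530050N04Rik, Poln, Adra1a, Htr3a, Aspg and Sucla2. Lower at 12 weeks were Syt2, Dhrs9, Fos, Rnf152, Ppargc1b and Pdk4, which fell by 0.56 (SE 0.162, limma adjusted p = 0.0331). The call for Pdk4 was lost in 8 of 16 alternatives, among them limma without a trend and each single library other than 12-week female left out. Every member passed the filter on low values, but A530050N04Rik, Als2cr12, Gm32718 and LOC102632957 did so only through their 2-week values, and 3 of these 4 are among the 13. Filtering on the 5 other libraries, an alternative chosen after seeing the data, left 43 members, with 10 called higher (23.3%, against 17.6%) and 6 lower (14%, against 23.8%). In 12 members (25.5%, against 20.2% of genes tested) the difference had opposite signs in the sexes. The median difference was 0.11 over the members and -0.03 over all genes. These p-values rest on a male and a female pool per age as the only measure of spread, with 2 residual degrees of freedom. Without the P1 male library 7 members were called higher and 3 lower, without the P1 female library 11 and 0, and without the 12-week male library 10 and 10. With both 2-week libraries left out, also chosen after seeing the data, 10 and 3 were called, and A530050N04Rik, Aspg, Sucla2, Dhrs9, Fos and Pdk4 were lost. Testing genes of any mean above 0 lost A530050N04Rik, Adra1a, Als2cr12, Aspg, Poln, Fos, Pdk4 and Syt2. Scaling every library to the same total gave 12 higher and 9 lower (57.1% higher in place of 68.4%) and moved the median of all genes to -0.15.

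**Figure D4:**
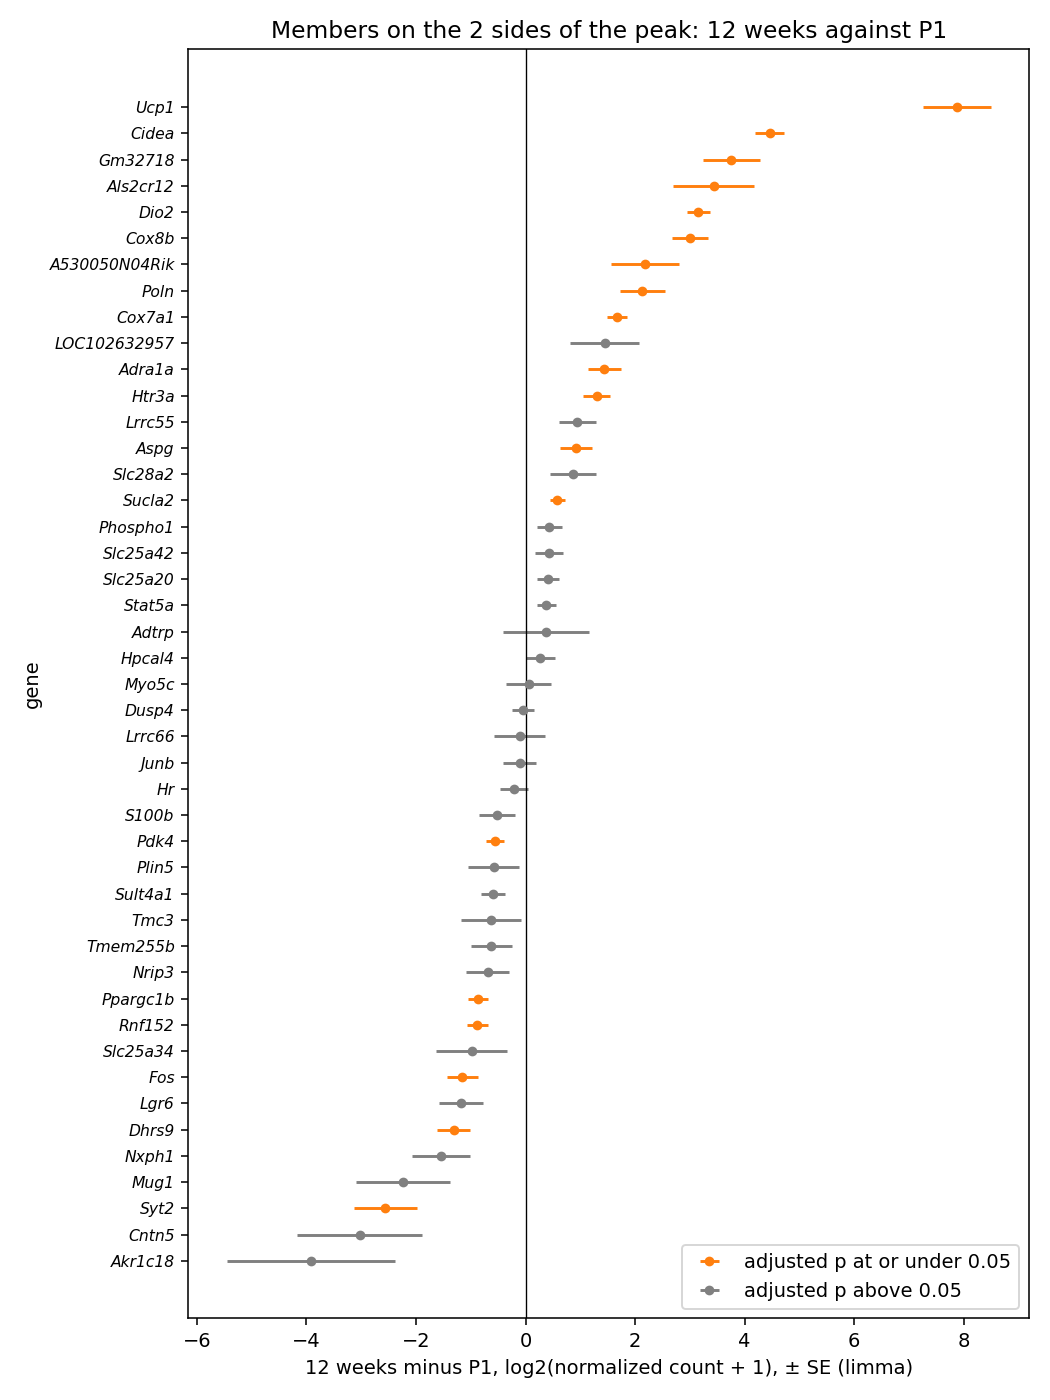
Difference between 12 weeks and P1 for 45 members, in log2(normalized count + 1), with the standard error from limma as bars; orange marks adjusted p at or under 0.05. Ucp1 is highest at 7.87, and the 5 brown fat genes are all to the right of 0. The widest bars belong to genes with few reads or unequal male and female libraries, such as Akr1c18.

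For sex, the 2-week values in the fit are bound by the rule, which set the smaller of the pair. Over the 3 postnatal ages limma called 0 of 47 members, and 1 of 16720 genes (0.00598%). At an unadjusted p under 0.05 were 5 of 47 members and 521 of 16720 genes, in a fit that includes the 2-week values. In log2 male minus female these members were Cox7a1 at -0.56 ± 0.152, Akr1c18 at -3.34 ± 1.26, A530050N04Rik at -1.31 ± 0.505, Slc25a42 at -0.53 ± 0.209 and Pdk4 at -0.32 ± 0.132. All 5 were higher in the libraries labelled female, of which the P1 library also held Y-linked RNA. A530050N04Rik had few reads outside 2 weeks, with 0 and 4 at P1 and 4 and 14 at 12 weeks. With both 2-week libraries left out limma called 0 members and 0 genes. At an unadjusted p under 0.05 were then 2 of 47 members, A530050N04Rik and Slc25a42, and 674 of 16720 genes. Neither edgeR nor DESeq2 on the recovered reads called a member.

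At 2 weeks the rule limited how far the sexes could lie apart, so these values are a description and nothing is read from their shares. Of 47 members 1, Akr1c18, differed 2-fold or more in favour of the female library (2.13%, against 3.67% of genes tested), and 0 in favour of the male library (against 0.568%). Within 1.5-fold were 43 of 47 members, and 89.9% of all genes. Next to Akr1c18, the widest differences were those of Lrrc66, at -0.73 in log2 male minus female, and Cntn5, at 0.68. A counting interval of the ratio that left out 1 was found for 17 members higher in the female library (36.2%, against 17.2% of genes tested) and 9 higher in the male library (19.1%, against 15.5%). With 1 pool per sex, these compare the libraries and not the sexes.

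Among members that reached 2-fold at 12 weeks, more were higher in the male library. There, 8 of 47 (17%, against 4.84%) reached 2-fold or more in favour of the male library: Adtrp, Als2cr12, Cntn5, Mug1, Plin5, Slc25a34, Syt2 and Tmc3. Another 3 (6.38%, against 3.98%) were higher in the female library: A530050N04Rik, Akr1c18 and Nxph1. Plin5 had a male to female ratio of 3.02 (95% interval 2.12 to 4.37) and Adtrp 3.35 (2.32 to 4.91). Cntn5 was at least 9.06-fold higher in males, taking 3 reads as the floor of the female library. Syt2 (ratio 5.56, 1.15 to 52.9) and Mug1 (9.89, 1.33 to 439) rest on 2 reads and 1 read in the female library. As at 2 weeks, these are differences between libraries, with 1 pool per sex. The 12-week adipocyte sum was 65647 for males and 51061 for females. Within that list Adipoq was at 5237 and 3026, while Retn went the other way, at 1446 and 1562. The part of adipocyte RNA in the 12-week differences was not tested. At P1, 11 members (23.4%, against 3.03% of genes tested) differed 2-fold or more in favour of the library labelled female, and 0 in favour of the male library (against 3.75%). These were A530050N04Rik, Adtrp, Als2cr12, Cox8b, LOC102632957, Lrrc55, Mug1, Slc25a34, Slc28a2, Tmc3 and Ucp1. In that P1 library, which also held Y-linked RNA, the muscle sum was 167617 against 89611 in the male library, the Schwann cell sum 12269 against 4521 and the adipocyte sum 13206 against 11787. Within the adipocyte list Adipoq was at 142 against 11.5 and Cfd, the adipocyte protease adipsin, at 47.5 against 3.27. Their part in these differences was not tested.

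**Figure D5:**
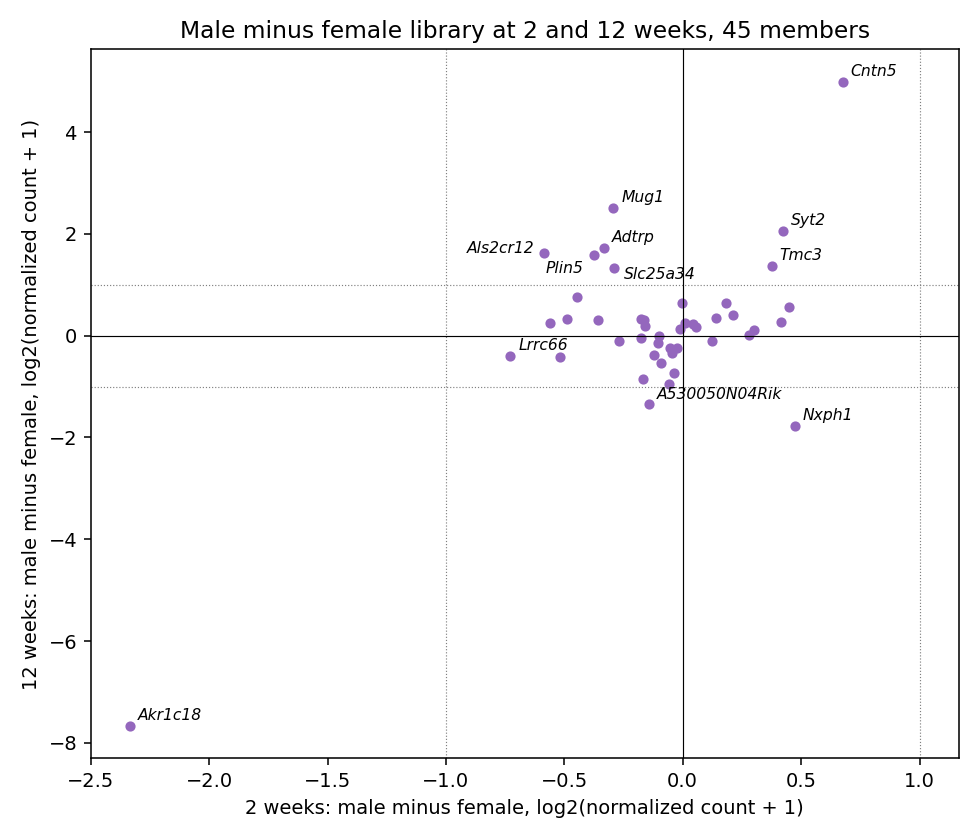
Male minus female difference in log2(normalized count + 1) for 45 members at 2 weeks (horizontal) and 12 weeks (vertical), 1 library per sex and age; dotted lines mark 2-fold. Akr1c18 lies far to the lower left (-2.33 at 2 weeks), most members lie within 2-fold on both axes, and Cntn5, Mug1 and Syt2 at the top rest on 0 to 2 reads in the 12-week female library.

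Between E18.5 and P1, 6 of the 47 members differed at least 2-fold in both P1 libraries. Of these, 5 (10.6% of the 47, against 2.91% of genes tested) were at least 2-fold higher in both P1 libraries than at E18.5: Akr1c18, Lrrc66, Mug1, Pdk4 and Slc25a34. Another member, Gm32718, was at least 2-fold lower (2.13%, against 2.24%), from 4 reads at E18.5 and 0 at P1. Reads at E18.5 were few for Lrrc66 (2), Mug1 (6) and Slc25a34 (17), against 337 for Akr1c18 and 363 for Pdk4. With a pseudocount of 5 in place of 1, 4 members in place of 6 differed 2-fold, and 642 in place of 861 genes. Both P1 libraries were set against the same E18.5 library, and the E18.5 pool had no replicate. For Pdk4 the values were 305 at E18.5 and 1096 and 1381 at P1, between the E18.5 level and the 2-week level of 3239 and 3450.4. Ucp1, by contrast, was at 24.3 normalized counts or less up to P1.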

How the data were processed

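RNA of pooled C57BL/6J adrenal glands was sequenced (7 libraries, 15184210 to 23551289 reads in genes). Per the submitters' processing notes, the tools were CASAVA 1.8.2, HISAT2 2.1.0, HTSeq 0.9.1 and DESeq2 2.11.40.6 with build mm10; the annotation, filters and use of strand are not given in the sources used here. The authors deposited a normalized signal per gene: 100% of values were whole reads, within 0.01 reads, divided by 1 size factor per library. Genes with a mean of at least 10 (16720) were tested with limma 3.58.1 (trend) in R 4.3.3 on log2(value + 1), with age and sex as terms in the 6 postnatal libraries and Benjamini-Hochberg adjustment. edgeR 4.0.16 and DESeq2 1.42.0 on the recovered reads were alternatives, 2 others (a filter on the libraries other than 2 weeks, and both 2-week libraries left out) were chosen after seeing the data, and fits were tested on simulated data. Comparisons of 1 library with 1 use a 2-fold limit. Intervals are exact binomial (95%) and cover counting error only.

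Members and lists were chosen with earlier results of these data known, and 10 of the 34 lists after the values of the members were seen. Genes were named by a rule: the 12 largest ratios, the 12 highest 2-week values, list genes, the 8 highest and 8 lowest called from P1 to 12 weeks, the widest sex differences and the 3 genes on each side of the limit. The other members are named once, 2 members counted in the totals are not reported here by name, value or figure, and near-members were chosen after their values were seen.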

Additional observations from a re-analysis of the deposited data

Results flagged for a closer look

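Adtrp, a hydrolase of fatty acid esters, moved in opposite directions in the male and the female libraries from P1 to 12 weeks. The log2 difference was 2.283 in the male libraries (31.1 to 155 normalized counts) and -1.541 in those labelled female (137 to 46.4). At E18.5 Adtrp was at 32.8. The P1 library labelled female, with the value of 137, also held Y-linked RNA (1273 normalized counts over 4 genes). Each value compares 1 library with 1, and the difference between the sexes was not tested. Of the 47 members, 12 (25.5%, against 20.2% of genes tested) had opposite signs in the sexes over this interval.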

How the results depend on the processing

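With genes of any mean above 0 tested, 11 members were called from P1 to 12 weeks, 8 higher and 3 lower, with more genes in the adjustment. Leaving out 1 library at a time gave 10 to 24 members called, 7 to 16 higher and 0 to 10 lower; fewer libraries leave 1 residual degree of freedom, as does leaving out both 2-week libraries, which gave 10 higher and 3 lower. At a 4-fold limit, 4 members in place of 11 differed between the 12-week libraries and 2 in place of 6 between E18.5 and P1. The rule found 148 genes at 1.5-fold, 14 at 3-fold and 9 at 4-fold, and 67 without the P1 female library. For single members, 740 values were recomputed: of 299 for called genes, 245 stayed called, 54 were no longer called and 0 changed direction. Of the values for genes not called, 422 stayed so and 19 became called. The calls for Ucp1, Cidea, Cox7a1, Cox8b and Dio2 held in all 16 alternatives, and that for Gm32718 in the 14 in which it was tested. No paired analysis was possible because each group was 1 pool with no replicate. Genes with few reads, such as Mug1, Syt2 and Als2cr12, are limited by depth.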
